A study of Rattus norvegicus with 6 samples.

Results

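The 8 genes described here are 5 hemoglobin chains, 2 globins of other tissues and 1 enzyme of heme synthesis. Carbon monoxide binds the heme iron of globins, and carboxyhemoglobin served as the criterion of poisoning in these rats. The members were chosen by symbol from the gene list of the count files, where all 8 were present among 15227 genes: Hba-a1, Hba-a2, Hba-a3, Hbb, Hbb-b1, Alas2, Cygb and Ngb. The first 5 are called hemoglobin below, and their UMIs (unique molecular identifiers, 1 for each captured RNA molecule) were also summed.

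The study compared normal control rats (NC) with rats poisoned by inhaled carbon monoxide (CO), with 3 droplet single-cell libraries of cerebral hemisphere in each group. The CO rats breathed 1000 ppm for 40 min and then 3000 ppm for 20 min, and counted as severely poisoned with impaired consciousness and carboxyhemoglobin above 60%. Strain, sex, age and the time from exposure to dissection are not given in the sources used here, and the labels give the NC group no treatment. The tissue was minced by enzyme (trypsin with DNase) and strained, and the protocol names no perfusion and no step that removes red blood cells.

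Hemoglobin is a tetramer of alpha and beta chains that carries oxygen in red blood cells. Carbon monoxide competes with oxygen for its heme and binds far more tightly. Rat red blood cells have lost their nucleus, and young ones still hold globin mRNA, so hemoglobin transcripts in brain libraries can come from blood left in the vessels, from free RNA caught in droplets, or from brain cells. Alas2 encodes the erythroid form of the first and rate-limiting enzyme of heme synthesis and is used as a sign of erythroid RNA. Ngb encodes neuroglobin, a monomeric globin known from neurons and retina. Cytoglobin, the product of Cygb, is known from fibroblasts and other matrix-producing cells.

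The 3 alpha genes and the 2 beta genes are paralogs, and the DNA before each is shown because the 5 genes are described together and their counts moved together over all barcodes. The 120 bases before the annotated start, from RefSeq (GRCr8, all on the minus strand), are given 5′ to 3′. Capitals mark TATAAA and CCAAT on either strand (ATTGG is CCAAT on the other strand), and in Hbb the matches on the 2 strands adjoin.
Hba-a1 (chr10:15842581-15842700): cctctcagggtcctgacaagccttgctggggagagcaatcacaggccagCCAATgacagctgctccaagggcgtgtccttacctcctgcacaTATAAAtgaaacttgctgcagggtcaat
Hba-a2 (chr10:15829139-15829258): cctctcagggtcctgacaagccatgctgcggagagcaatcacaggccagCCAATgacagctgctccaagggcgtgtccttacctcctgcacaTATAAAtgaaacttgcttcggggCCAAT
Hba-a3 (chr10:15816944-15817063): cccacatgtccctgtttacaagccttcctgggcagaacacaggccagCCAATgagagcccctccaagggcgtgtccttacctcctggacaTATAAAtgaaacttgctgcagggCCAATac
Hbb (chr1:167663722-167663841): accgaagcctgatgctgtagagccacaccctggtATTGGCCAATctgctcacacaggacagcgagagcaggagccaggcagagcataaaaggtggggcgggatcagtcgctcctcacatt
Hbb-b1 (chr1:167643521-167643640): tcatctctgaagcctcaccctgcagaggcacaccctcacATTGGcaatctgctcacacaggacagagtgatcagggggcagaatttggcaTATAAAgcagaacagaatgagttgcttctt

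In a global alignment Hba-a1 and Hba-a2 shared 115 of these 120 bases, Hba-a1 and Hba-a3 shared 104, and Hbb and Hbb-b1 shared 88. An alpha and a beta promoter shared between 70 and 78 of them. All 5 windows held CCAAT and 4 of 5 held TATAAA, which were found in 20.1% and 6.81% of the 27457 promoter windows of this length. The erythroid motif AGATAA was in 0 of the 5 and in 4.51% of all windows. These matches describe letters in a short window and say nothing of binding. The RefSeq table held a promoter for 7 of the 8 members. How reads that match several paralogs were counted is not given in the sources and was not tested, so the split among Hba-a1, Hba-a2 and Hba-a3, and between Hbb and Hbb-b1, is uncertain.

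A property of the files limits every comparison and comes before the results. The libraries held 6331 to 7953 barcodes each, 22608 in NC and 19685 in CO. Nearly every barcode had 1 or 2 partners in its own group that detected nearly the same genes. With partners defined by a Jaccard index of detected genes of at least 0.7, 99.2% of NC and 99.3% of CO barcodes had one, and the 22608 and 19685 barcodes fell into 8283 and 7116 sets of 1 to 3. The median index was 0.79 to the nearest and 0.77 to the second nearest barcode in NC but 0.26 to the third. Of the sets, 6785 in NC and 5842 in CO reached over more than 1 library, and no NC barcode reached 0.7 with a CO barcode (highest 0.65). The barcode sequences themselves were not repeated, with 1 shared over the 15 pairs of libraries. Averaged over genes, the variance between libraries was 1.01 times (NC) and 1.12 times (CO) that within them, where random parts of 1 pool give a ratio of 1. Each group was therefore counted as 1 sample, no p-value was computed, and every interval below covers counting error only and is too narrow where near-identical barcodes share a molecule. Values of the 3 libraries show the spread between files, not between rats.

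Hemoglobin RNA was abundant in both groups and higher in CO when every barcode was counted. Levels are given as CPM, a gene's UMIs per 1000000 UMIs of the same barcodes. Hemoglobin was at 1942, 2429 and 1874 CPM in NC replicates 1, 2 and 3, and 3295, 2578 and 2842 CPM in CO replicates 1, 2 and 3. The lowest CO library lay above the highest NC library. Summed over each group this was 2071 CPM (279479 UMIs) in NC and 2914 CPM (365367 UMIs) in CO, a log2 ratio of 0.49 (95% exact interval 0.49 to 0.50). Such a separation of the 3 CO libraries above the 3 NC libraries was found for 31.2% of all 14528 genes with at least 30 UMIs, so it does not mark hemoglobin out.

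All 5 hemoglobin genes were higher in CO over all barcodes, beside 49.7% of all genes. Hba-a1, an alpha chain, was at 1439 CPM in NC and 2059 CPM in CO (log2 ratio 0.52, 0.51 to 0.52). Hba-a2, the second alpha chain, was at 566 CPM and 775 CPM (0.45, 0.44 to 0.47). For both, each CO library exceeded each NC library. Hbb, the adult beta chain, was at 41.1 CPM and 47.3 CPM (0.20, 0.15 to 0.26), Hba-a3 at 23.5 and 30.6 CPM (0.38, 0.31 to 0.45) and Hbb-b1 at 2.09 and 2.54 CPM (0.28, 0.05 to 0.52). In these 3 genes the libraries of the groups overlapped. None of the 5 reached a 2-fold difference, which 5.44% of genes did upward and 3.98% downward. Over all genes 50.3% were lower in CO.

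**Figure D1:**
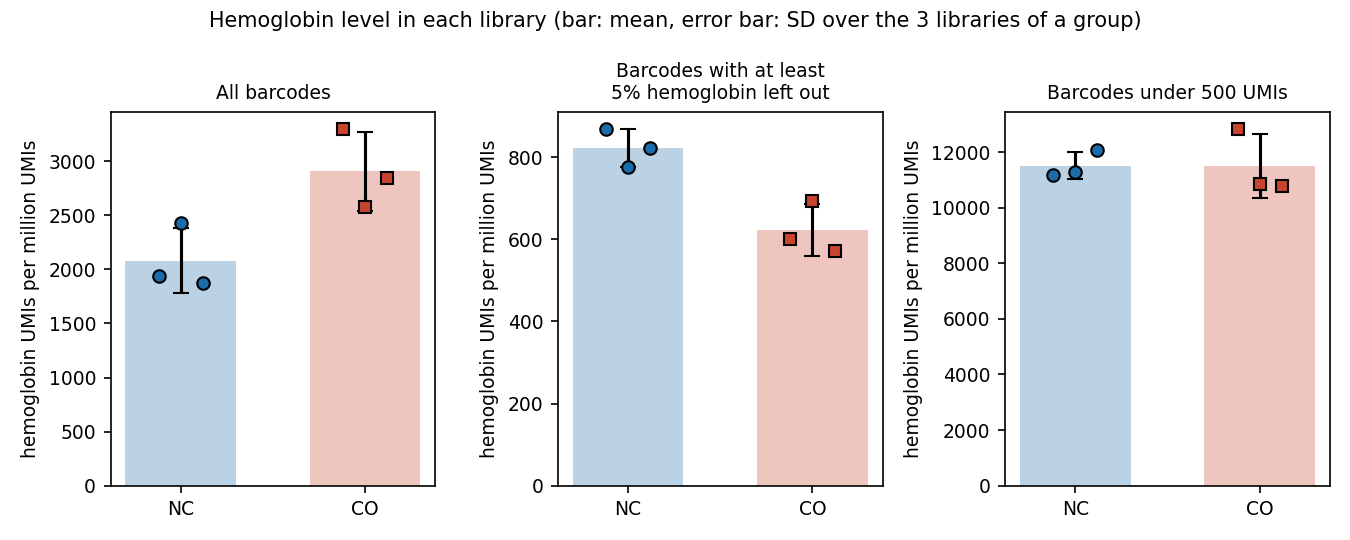
Hemoglobin CPM in each library, NC (circles) and CO (squares), over all barcodes, without barcodes holding at least 5% hemoglobin, and in barcodes under 500 UMIs; bars are means and error bars the SD over the 3 libraries of a group, which were counted as 1 sample. CO lies above NC in the first panel (2578 to 3295 against 1874 to 2429), below it in the second (572 to 693 against 776 to 868) and overlaps it in the third.

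The direction of that difference rested on few barcodes. In 173 NC barcodes (0.765%) and 180 CO barcodes (0.914%), called hemoglobin-rich below, hemoglobin made up at least 5% of UMIs, and these held 60.6% and 78.9% of all hemoglobin UMIs. They came from 88 NC and 83 CO near-identical sets. The threshold was set after seeing the data, and 96 NC and 45 CO barcodes lay just under it at 4% to 5%, against 38 and 33 just over it at 5% to 6%. Without these barcodes hemoglobin was at 868, 776 and 822 CPM in NC replicates 1 to 3 and at 601, 693 and 572 CPM in CO replicates 1 to 3. All 3 CO libraries then lay below all 3 NC libraries, which was so for 32.2% of genes. The group values were 823 and 620 CPM, a log2 ratio of -0.41 (-0.42 to -0.40), so the sign turned at this limit. Barcodes were left out by the same hemoglobin counts that are compared, here and in the classes below, so these values are a description. No ratio at another limit is given. Barcodes of at least 1% hemoglobin were 11.3% of NC and 6.55% of CO barcodes. All 5 genes were then lower in CO, beside 50.1% of all genes: Hba-a1 (-0.40), Hba-a2 (-0.45), Hbb (-0.48) and Hbb-b1 (-0.35), the last with overlapping libraries, and Hba-a3 at -0.03 (-0.13 to 0.08), also with overlap.

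Few sets carried most of the hemoglobin. The 10 richest near-identical sets held 32.1% of hemoglobin UMIs in NC and 45.3% in CO, and 50% was reached with 23 of 8283 NC sets and 12 of 7116 CO sets. The richest CO set, 3 barcodes from 3 libraries, held 29309 hemoglobin UMIs, or 8.02% of the CO total. The richest NC set held 13411, or 4.80%. With 1 barcode kept per set the log2 ratio over all barcodes was 0.61.

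**Figure D2:**
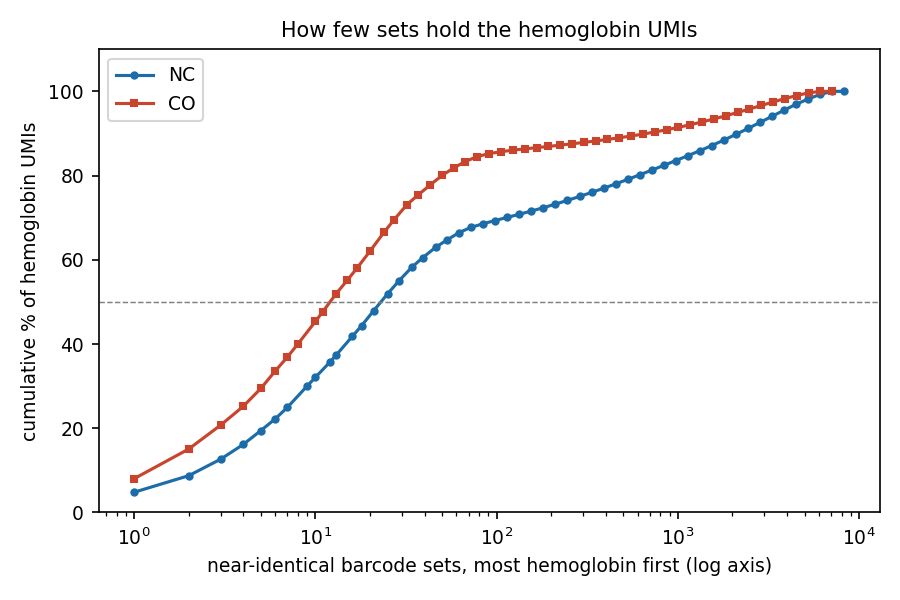
Cumulative percent of hemoglobin UMIs (vertical axis) over near-identical barcode sets ordered from most to fewest hemoglobin UMIs (horizontal log axis), NC in circles and CO in squares; the dashed line marks 50%. The CO curve reaches 50% at 12 sets and the NC curve at 23 sets.

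Barcodes dominated by hemoglobin were more frequent in CO. At least 50% of UMIs were hemoglobin in 7 of 22608 NC barcodes (0.031%, exact Clopper-Pearson interval 0.012% to 0.064%) and in 32 of 19685 CO barcodes (0.163%, 0.111% to 0.229%). By library these were 2, 5 and 0 in NC and 14, 9 and 9 in CO, so each CO library had more than each NC library. They fell into only 3 NC and 17 CO sets. At 75% the numbers were 3 and 11 barcodes, and at 25% they were 29 and 63.

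Most hemoglobin-rich barcodes also carried markers of another class. Class markers, none of them a member, placed 72 of the 173 NC and 45 of the 180 CO barcodes among endothelial-like cells, the lining of vessels. Of the others, 11 NC and 22 CO were microglia-like (the resident macrophages of the brain), 7 and 11 pericyte-like, 7 and 18 oligodendrocyte-like, and 38 and 26 had under 500 UMIs. Only 8 NC and 15 CO barcodes were erythroid-like, from 4 and 7 sets. Among the 10 genes leading those erythroid-like barcodes, beside all 5 hemoglobin genes, were Alas2, Ahsp (a chaperone of free alpha chains) and Slc4a1 (the band 3 anion exchanger of the red cell membrane), the last 2 of which were also gate markers.

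Hemoglobin counts were not alike within near-identical sets. Among sets with a hemoglobin-rich barcode, the highest barcode had a median of 2.50 times (84 NC sets) and 2.09 times (81 CO sets) the hemoglobin UMIs of the lowest, while the other UMIs of the same barcodes differed by 1.06 and 1.07 times. These sets were chosen for a barcode high in hemoglobin, and the other UMIs are a sum over all other genes, so the values are a description and no comparison with other single genes was made. The richest CO set held 8466, 9937 and 10906 hemoglobin UMIs in its 3 barcodes, and the second held 6004, 8230 and 11467.

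Barcodes under 500 UMIs, which hold too little RNA for a class, carried the most hemoglobin per UMI of any range of depth, at a level that did not part the groups. Hemoglobin was at 11164, 11294 and 12077 CPM in NC replicates 1 to 3 and at 12820, 10870 and 10772 CPM in CO replicates 1 to 3. The ranges overlapped. Over 2302 NC and 1838 CO barcodes the level was 11528.5 and 11487.8 CPM, a log2 ratio of -0.01 (-0.05 to 0.04). Hemoglobin-rich barcodes changed this little, with 10141 and 10251 CPM without them. In this stratum the median of all 6672 genes was -0.11. Of the 4 hemoglobin genes with at least 30 UMIs there, Hba-a2 and Hba-a3 stood higher and Hba-a1 and Hbb lower in CO, beside 44.1% and 55.9% of all genes, and none was 2-fold apart (7.25% of genes were higher and 13.6% lower). Hbb-b1 had 2 and 6 UMIs. The percentage of these barcodes with a hemoglobin UMI was 82.1% in NC and 83.4% in CO at median depths of 369 and 373 UMIs.

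A small number of hemoglobin UMIs was present in most barcodes whatever their depth. Without hemoglobin-rich barcodes, the median was 2 to 4 hemoglobin UMIs per barcode in every range of total UMIs and both groups. In NC hemoglobin CPM was lower in each deeper range, from 10141 under 500 UMIs to 393 at 10000 UMIs and more. In CO it went from 10251 under 500 UMIs to 455 at 5000 to 10000 UMIs and was 466 above that. Each CO library lay below each NC library in the 4 ranges from 500 to 10000 UMIs. The share of all genes with such a separation was not computed by depth range. At 500 to 1000 UMIs the 3 NC libraries had 8796, 9008 and 9039 CPM and the 3 CO libraries 4588, 4626 and 4714. At 1000 to 2000 UMIs the values were 6865, 5998 and 6674 CPM in NC and 2248, 2591 and 2714 CPM in CO. The classes described below did not share this direction. Among their barcodes of 500 to 2000 UMIs, the widest gaps in CPM were in oligodendrocyte-like (14044 in NC and 4319 in CO) and choroid plexus-like barcodes (13804 and 5692). Endothelial-like (2277 and 3428), pericyte-like (2011 and 2473) and astrocyte-like barcodes (2951 and 3338) were higher in CO, as were T or NK-like barcodes on 5 and 4 UMIs. Over all classes together the gap was smaller in deeper barcodes. At 2000 to 5000 UMIs the libraries had 828, 753 and 848 CPM in NC and 679, 706 and 684 CPM in CO. At 5000 to 10000 UMIs they had 530, 556 and 565 CPM in NC and 464, 426 and 475 CPM in CO. At 10000 UMIs and more they overlapped.

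**Figure D3:**
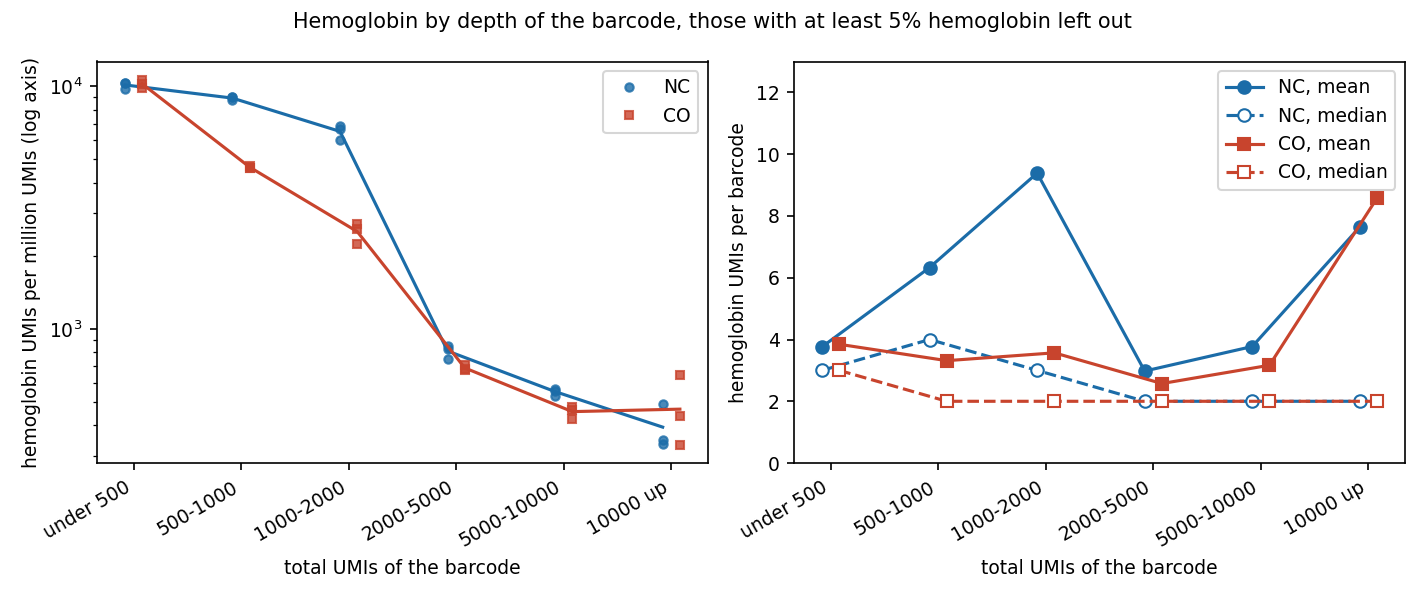
Hemoglobin by total UMIs of the barcode, hemoglobin-rich barcodes left out, NC (circles) and CO (squares): left, CPM on a log axis, points for libraries and lines for groups; right, mean (filled) and median (open) hemoglobin UMIs per barcode. The medians stay between 2 and 4 while the NC mean reaches 9.39 at 1000 to 2000 UMIs, where CO is at 3.57.

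Of the barcodes with at least 500 UMIs, 89.1% in NC and 87.8% in CO were gated to a class by markers, and 13 classes had at least 30 barcodes in both groups. Hemoglobin UMIs were found in every class. Without hemoglobin-rich cells, 67.1% to 85.2% of the cells of a class had one in NC and 65.8% to 85.5% in CO. T and NK cells are not known to express hemoglobin: 74.6% of NC and 65.9% of CO T or NK-like cells (median depths 6016 and 6340 UMIs) had a hemoglobin UMI, and at a common depth of 500 UMIs 15.3% and 15.0% were expected to. A share at this level is not taken as expression by a class, and the source of these UMIs was not tested. Levels within a class are shares of its UMIs, so they do not count its cells. They also do not give an amount of RNA per cell. RNA of the cell and RNA from the surrounding fluid cannot be told apart.

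The level still differed between classes. With hemoglobin-rich cells left out, endothelial-like cells stood highest in NC at 1820, 1114 and 1307 CPM in replicates 1 to 3 (1421 over the group), and pericyte-like cells, which wrap capillaries, followed at 1045 CPM with overlapping libraries. Oligodendrocyte-like cells, which make myelin, came next at 810 CPM and stood apart from the class below. From astrocyte-like (618) through microglia-like, ependymal-like, border macrophage-like, neuroblast-like, monocyte or dendritic-like, smooth muscle-like and T or NK-like (276) to choroid plexus-like cells (273), each class overlapped its neighbour. Fibroblast-like cells were lowest at 136 CPM, apart from choroid plexus-like but not from smooth muscle-like cells by library. In CO the order began with smooth muscle-like (2144 CPM, libraries from 165 to 4671), endothelial-like (1075), pericyte-like (971) and astrocyte-like cells (839), the 4 overlapping in sequence, and ended again with fibroblast-like cells (71.5).

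**Figure D4:**
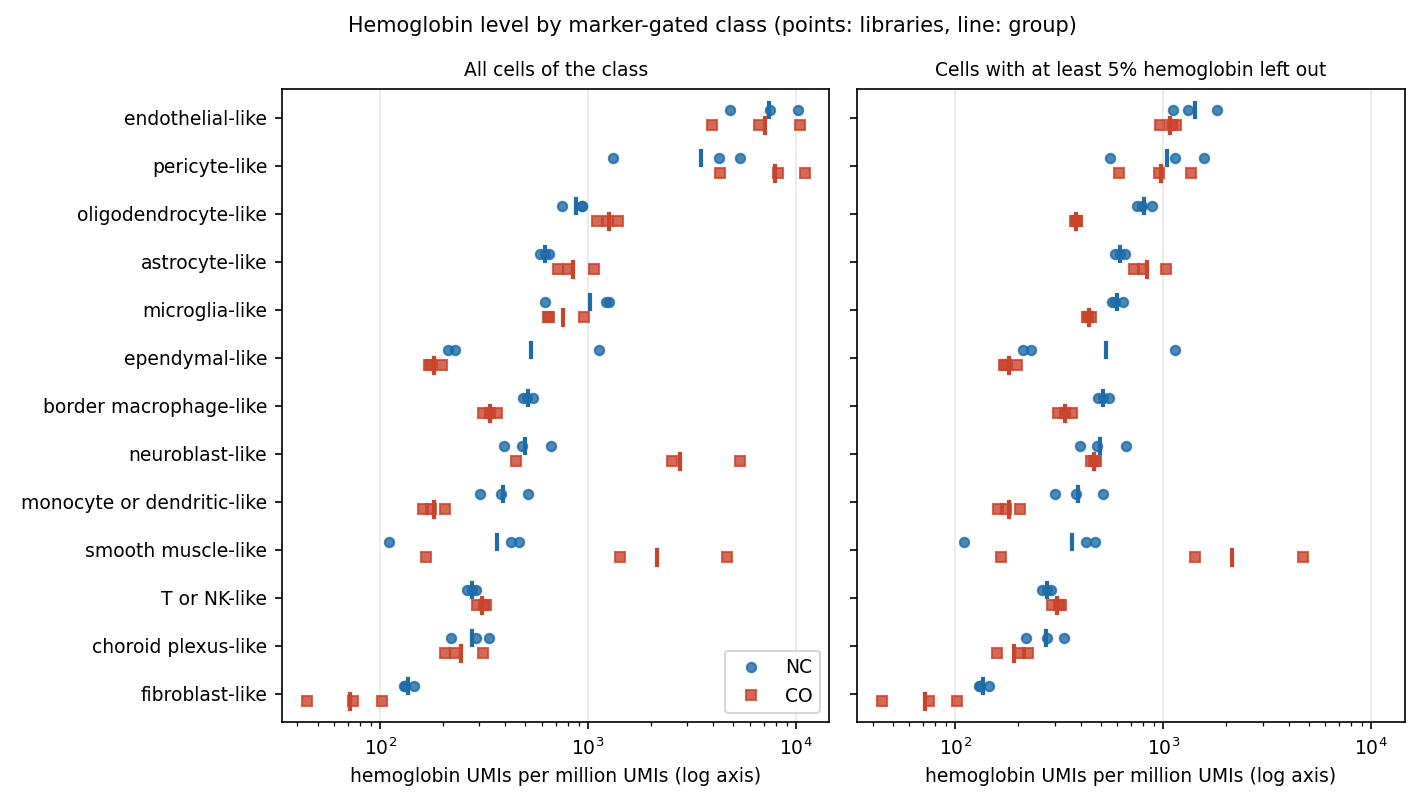
Hemoglobin CPM on a log axis in 13 marker-gated classes, NC (circles) and CO (squares): points are libraries and short lines the group. Without cells of at least 5% hemoglobin (right), neuroblast-like and pericyte-like groups come together and oligodendrocyte-like CO moves from above NC (1254 against 874) to below it (382 against 810).

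Between the groups no single direction held across classes. Hemoglobin CPM was lower in CO in 7 of 13 classes and higher in 6. Among all genes, 49.7% to 61.4% were lower in CO depending on the class (median 53.1%), so 7 of 13 is near the background. Hemoglobin was at least 2-fold lower in 2 classes and higher in 3, beside 3.16% to 18.4% and 3.45% to 11.7% of genes. The 3 CO libraries lay all below NC in 4 classes and all above in 3, and over the 13 classes 11.4% to 31.8% of genes lay all below and 8.91% to 18.8% all above. Without hemoglobin-rich cells the count lower in CO was 10 of 13, with 6 classes all below and 2 all above; the background of genes was taken over all cells of each class only. The median log2 ratio over the 13 classes moved from -0.07 to -0.45. Median depth per cell also differed between the groups within classes, and these ratios were not corrected for it.

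Lower values in CO with the libraries apart were found in phagocytes and fibroblast-like cells, which were also deeper in CO. Border macrophage-like cells, the macrophages of vessels and meninges, had 485, 510 and 545 CPM in NC replicates 1 to 3 and 364, 311 and 338 in CO replicates 1 to 3, a log2 ratio of -0.61 (-0.74 to -0.48). Each CO library was below each NC library, as for 14.3% of genes in this class. Monocyte or dendritic-like cells had 301, 379 and 513 CPM in NC and 161, 175 and 204 CPM in CO, or 390 and 182 over the groups (-1.10, -1.38 to -0.83), with the libraries apart as for 11.9% of genes and past 2-fold as for 11.0%. This rested on 39 sets in each group and on 316 and 179 UMIs, and stood at -0.88 without NC replicate 3. Fibroblast-like cells had 130, 145 and 132 CPM in NC and 74.4, 102 and 44.3 CPM in CO (136 and 71.5 over the groups, -0.92, -1.24 to -0.62), with the libraries apart as for 23.8% of genes, in a class where the median of all genes was -0.20. These 3 classes held no hemoglobin-rich cell. Their median depths, in the order above, were 4189, 9021 and 13632 UMIs in NC and 5068, 10579 and 18159 UMIs in CO. Microglia-like cells were at 5063 and 5945 UMIs. Hemoglobin CPM was lower in deeper barcodes, and how much of these ratios goes with depth was not tested. In cells of at least 2000 UMIs the 3 ratios were -0.58, -1.07 and -0.79. In microglia-like cells the libraries overlapped (1022 and 754 CPM, -0.44). With 11 NC and 22 CO hemoglobin-rich cells left out, they had 566, 638 and 584 CPM in NC and 428, 450 and 434 CPM in CO, with each CO library below each NC library (-0.45, -0.48 to -0.42), as over all cells of the class for 30.5% of genes.

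The largest ratios rested on few sets. Ependymal-like cells, the ciliated lining of the ventricles, had 1134, 230 and 212 CPM in NC replicates 1 to 3 and 171, 198 and 175 in CO replicates 1 to 3. Libraries were apart as for 16.6% of genes, and 7.68% were 2-fold lower. One NC set held 662 of the 1024 NC UMIs, and without NC replicate 1 the log2 ratio went from -1.55 to -0.28. Neuroblast-like cells had 482, 661 and 396 CPM in NC and 449.8, 2528 and 5405 CPM in CO (2.48, beside 6.97% of genes past 2-fold higher), with 3 sets holding 85.6% of the CO UMIs. Without hemoglobin-rich cells they had 498 and 463 CPM (-0.11, -0.19 to -0.02), with overlapping libraries. Without CO replicate 3 alone the ratio was 1.59. Smooth muscle-like cells had 427, 110 and 467 CPM in NC and 1419, 4671 and 165 CPM in CO (2.56, beside 8.93% of genes past 2-fold higher). They held no cell at 5% or more, but 3 sets held 94.3% of their CO UMIs, without which CO stood at 148 CPM against 207 CPM in NC without its own 3 richest sets, and without CO replicate 2 the ratio was 1.43. Pericyte-like cells (5.47% of genes past 2-fold higher) went from 1.18 to -0.11 without hemoglobin-rich cells, and stood at 0.71 without NC replicate 3 and 0.81 without CO replicate 1.

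In endothelial-like cells, which carried 121446 of the NC and 99729 of the CO hemoglobin UMIs, the groups did not part. They had 4799, 10195 and 7507 CPM in NC and 10423, 3941 and 6637 CPM in CO, or 7449 and 7106 over the groups (-0.07). The sign turned without NC replicate 2 or CO replicate 2 (both 0.20). Without hemoglobin-rich cells the values were 1421 and 1075 CPM (-0.40, -0.43 to -0.37), and the libraries still overlapped.

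Oligodendrocyte-like cells changed sign with the cells counted. Over all 4686 NC and 1557 CO cells hemoglobin was at 931, 746 and 931 CPM in NC and 1399, 1108 and 1244 CPM in CO, CO above NC throughout as for 18.8% of genes (0.52, 0.50 to 0.55). Without 7 NC and 18 CO hemoglobin-rich cells it was at 793, 746 and 882 CPM in NC and 375, 386 and 386 CPM in CO, CO below NC throughout (-1.08, -1.12 to -1.04). Over all cells of the class 19.5% of genes lay below in this way and 6.05% were 2-fold lower. Shallow cells carried that difference. Among cells of 500 to 2000 UMIs, 1416 in NC and 252 in CO, hemoglobin was at 14044 and 4319 CPM (-1.70). Among 3263 NC and 1287 CO cells of at least 2000 UMIs it was at 322 and 326 CPM (0.02, -0.03 to 0.07). Cells under 2000 UMIs were 30.3% of the class in NC and 16.8% in CO. T or NK-like cells (276 and 309 CPM, 0.16, -0.05 to 0.38) and astrocyte-like cells (618 and 849 CPM, 0.46) were the other classes with each CO library above each NC library, as for 10.8% and 12.8% of their genes. Astrocyte-like cells were shallower in CO (median 3526 UMIs in NC and 2157 in CO), and their ratio was 0.22 in cells of at least 2000 UMIs.

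Hba-a1 gave the most hemoglobin UMIs in every class compared, and its share differed between classes. Over all barcodes Hba-a1 gave 69.5% of hemoglobin UMIs in NC and 70.6% in CO, Hba-a2 27.3% and 26.6%, Hbb 1.98% and 1.62%, Hba-a3 1.13% and 1.05%, and Hbb-b1 0.101% and 0.0873%. Under 500 UMIs Hba-a1 gave 69.3% and 68.9%, and in hemoglobin-rich barcodes 70.6% and 71.3%. Over the 13 classes without hemoglobin-rich cells its median was 66.9% in NC and 67.7% in CO. With those cells kept, CO neuroblast-like cells had 80.4% Hba-a1 and 17.3% Hba-a2 (24324 hemoglobin UMIs), and pericyte-like cells 76.1% Hba-a1 in NC and 77.3% in CO (9368 and 28711 UMIs). In each of these, 3 near-identical sets held most of the UMIs (85.6%, 71.7% and 77.8%). Without hemoglobin-rich cells the 3 shares of Hba-a1 were 67.2%, 66.9% and 67.2%. In erythroid-like barcodes the share of Hba-a2 was 17.5%, 26.8% and 29.4% in NC replicates 1 to 3 and 39.3%, 30.0% and 24.6% in CO replicates 1 to 3. The lowest shares of Hba-a1, 51.3% in NC monocyte or dendritic-like and 53.2% in CO fibroblast-like cells, rested on 316 and 124 hemoglobin UMIs. The 2 beta genes together gave 2.09% in NC and 1.71% in CO, although the protein holds equal numbers of alpha and beta chains. How Hbb reads were counted was not tested.

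Over 28 profiles (13 classes and the barcodes under 500 UMIs, in both groups), Hba-a1 and Hba-a2 followed the hemoglobin sum they belong to (Pearson r 1.00 and 0.99 on log2 CPM + 1), and Alas2 did so less closely (0.72). Outside the members the 5 genes most like hemoglobin were Camk2n1 (0.80), Avp (0.77), Exoc3l1 (0.76), Nxpe5l1 (0.75) and Xiap (0.75). Avp encodes vasopressin, a hypothalamic hormone, and Camk2n1 an inhibitor of a neuronal kinase. The profiles share libraries and differ in depth.

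Alas2 was concentrated in the hemoglobin-rich barcodes. It had 722 UMIs in NC and 807 in CO, or 5.58, 5.80 and 4.73 CPM in NC replicates 1 to 3 and 7.59, 4.68 and 6.90 CPM in CO replicates 1 to 3. The libraries overlapped (5.35 and 6.44 CPM, log2 ratio 0.27, 0.12 to 0.41). Of these UMIs, 436 and 517 lay in hemoglobin-rich barcodes, at 456 and 458 CPM against 2.13 and 2.33 CPM elsewhere. By class, endothelial-like cells held 46.3% of Alas2 UMIs in NC and 28.3% in CO, and erythroid-like barcodes 7.06% and 22.1%. In barcodes under 500 UMIs, where hemoglobin was most concentrated, Alas2 had 0 UMIs in NC and 6 in CO, the latter in 2 sets. The difference of 8.70 CPM was 4.35 CPM without CO replicate 2 and 13.05 CPM without CO replicate 3. A count of 0 allows up to 3 UMIs, or 3.51 CPM, so no ratio is given. After the hemoglobin genes, the profiles most like Alas2 were Prickle4 (0.71) and Fam219a (0.69).

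Red cell membrane genes marked the same barcodes. Slc4a1 had 93 of its 129 NC UMIs and 61 of its 87 CO UMIs in hemoglobin-rich barcodes, and Ahsp 88 of 176 and 117 of 170; both were named after their values were seen. Of 30 listed erythroid membrane, enzyme and transcription factor genes, 28 were in the files and 24 had at least 30 UMIs over all barcodes. Of these, 13 were higher and 11 lower in CO, beside 49.7% and 50.3% of all genes. At least 2-fold higher were 3 and lower 0, beside 5.44% and 3.98% of all genes. The median log2 ratio was 0.03, against -0.003 for all genes. The 4 with the most UMIs are also expressed outside the red cell lineage. Car2, a carbonic anhydrase, was at 1323 and 702 CPM (-0.91), Tfrc, the transferrin receptor, at 120 and 75.4 CPM (-0.67), Bpgm, which makes 2,3-bisphosphoglycerate, at 90.3 and 65.4 CPM (-0.47), and Bnip3l, a mitophagy receptor, at 185 and 156 CPM (-0.25).

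All 15 listed genes of heme synthesis and transport had at least 30 UMIs over all barcodes. In CO 5 were higher and 10 lower, beside 49.7% and 50.3% of all genes. None was 2-fold apart, as 5.44% of all genes were upward and 3.98% downward. The median log2 ratio was -0.11, against -0.003 for all genes. Cpox, the coproporphyrinogen oxidase, was at 89.0 and 45.1 CPM (-0.98, -1.02 to -0.93). Alas1, the housekeeping form of the first enzyme, was at 60.9 and 71.9 CPM (0.24, 0.20 to 0.28), Urod, a uroporphyrinogen decarboxylase, at 44.4 and 36.9 CPM (-0.27), and Tmem14c, a mitochondrial porphyrin transporter, at 102 and 94.6 CPM (-0.11). These values were not corrected for the make-up of cells: oligodendrocyte-like cells held 29.5% of UMIs in NC and 12.6% in CO. Inside that class 12 of the 15 were higher and 3 lower in CO, beside 50.3% and 49.7% of its genes (median 0.12). Microglia-like and endothelial-like cells each had 6 higher and 9 lower (medians -0.02 and -0.25), beside 58.6% and 59.7% of their genes lower. Of 16 other globin symbols listed, 1 was in the files, Adgb (androglobin), at 10.7 and 14.7 CPM over all barcodes (0.47, 0.37 to 0.57).

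Most Ngb UMIs were in oligodendrocyte-like cells, in a larger share in NC than in CO. Of 1312 NC and 501 CO UMIs, 1152 (87.8%, 85.9% to 89.5%) and 398 (79.4%, 75.6% to 82.9%) lay there, in 218 of 1829 NC sets and 90 of 593 CO sets, with no more than 28 UMIs in a set. Outside the class Ngb was at 1.68 and 0.94 CPM. A gate for neurons found 7 NC and 62 CO barcodes, which held 1 and 0 Ngb UMIs, too few to give a neuronal level. A UMI of Ngb was detected in 11.5% of NC and 14.1% of CO oligodendrocyte-like cells, against 0.117% and 0.0389% of microglia-like cells, whose median depths were 5063 and 5945 UMIs against 7021 and 9188.

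Over all barcodes Ngb was lower in CO, and within oligodendrocyte-like cells the groups overlapped. Over all barcodes it was at 10.7, 8.62 and 9.78 CPM in NC and 4.14, 4.38 and 3.50 CPM in CO, CO below NC throughout (log2 ratio -1.28, -1.43 to -1.13). It was past 2-fold lower, as were 3.98% of genes, and its libraries were apart, as in 32.3%. Oligodendrocyte-like cells were 20.7% of barcodes and 29.5% of UMIs in NC but 7.91% and 12.6% in CO. Inside the class Ngb was at 30.9, 26.6 and 29.0 CPM in NC and 26.9, 27.3 and 21.2 CPM in CO, or 28.9 and 25.2 CPM (-0.20, -0.37 to -0.03). The mean share per cell, with each cell weighted alike, gave 0.19 instead. Whether fewer such cells were in the CO tissue or fewer were captured cannot be told apart.

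Other classes held few Ngb UMIs. In CO smooth muscle-like cells there were 25 (26.5 CPM, 17.1 to 39.1) from 4 of 23 sets, against 2 UMIs in NC, which is within the limit of 3 that a count of 0 allows. Astrocyte-like cells had 12 in NC and 0 in CO, from 3 NC sets, choroid plexus-like cells 18 and 0, from 5 NC sets, and ependymal-like cells 11 and 17 (5.70 and 5.96 CPM). Over the 26 class profiles, the genes most like Ngb were Asb11 (Pearson r 0.82), Vldlr, Larp6, Tsnax and Hdac11 (each 0.81).

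**Figure D5:**
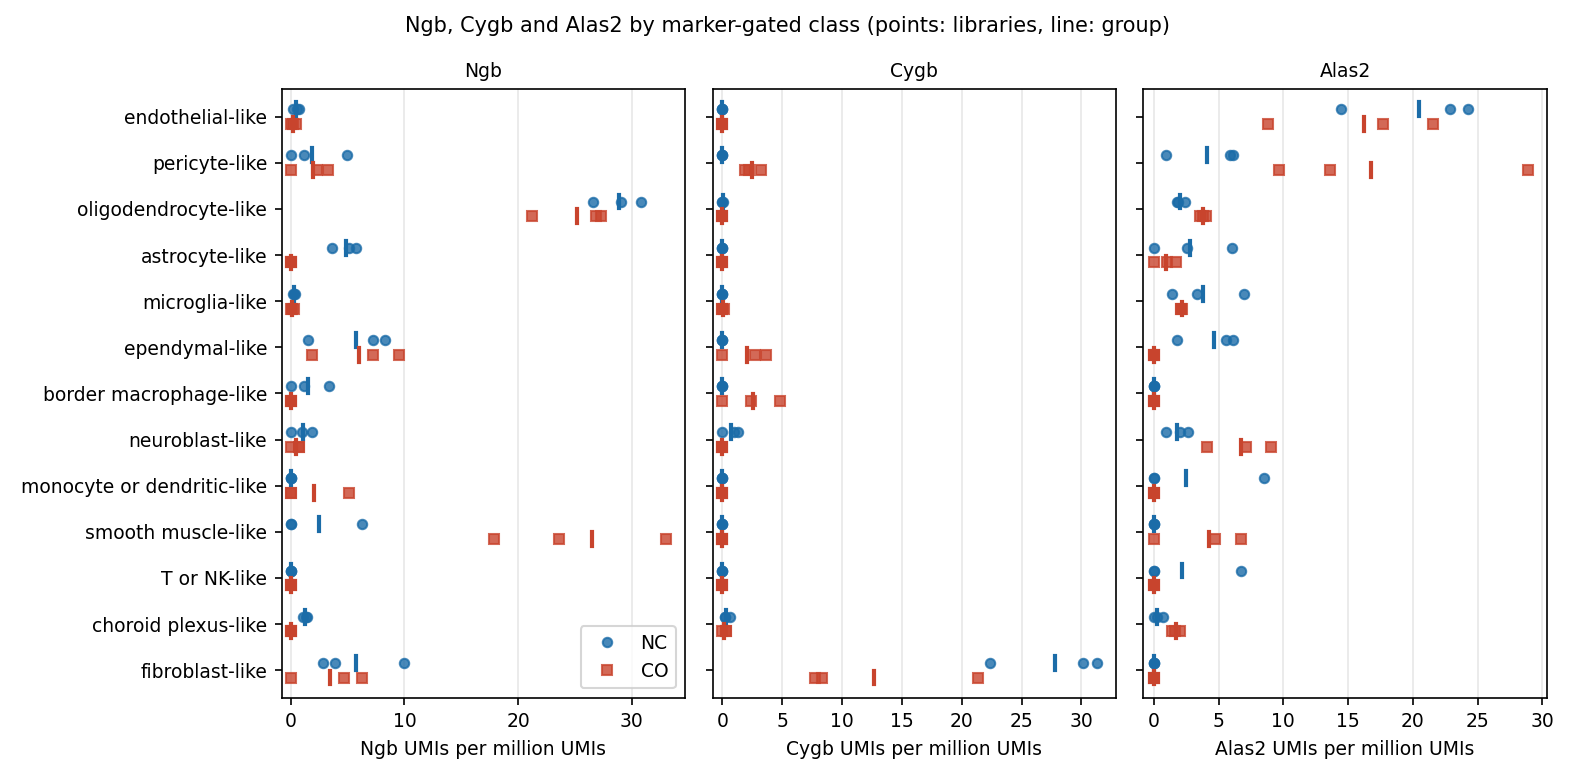
CPM of Ngb, Cygb and Alas2 in 13 marker-gated classes on linear axes, NC (circles) and CO (squares), points for libraries and short lines for groups. Ngb is highest in oligodendrocyte-like cells in NC (28.9), while in CO these (25.2) stand beside smooth muscle-like cells (26.5, from 25 UMIs); Cygb is highest in fibroblast-like cells (27.8 and 12.7), and Alas2 in endothelial-like cells in NC (20.5) and in pericyte-like (16.8) and endothelial-like cells (16.2) in CO.

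Cygb was rare, with 74 UMIs in NC and 61 in CO over all barcodes (0.548 and 0.487 CPM, log2 ratio -0.17, -0.69 to 0.34), and was centred on fibroblast-like cells. There 63 of the 74 NC UMIs (85.1%) and 22 of the 61 CO UMIs (36.1%) were found, although the class made up 0.597% and 0.371% of barcodes. It was at 22.3, 31.3 and 30.1 CPM in NC replicates 1 to 3 and at 7.75, 8.33 and 21.3 CPM in CO replicates 1 to 3. Each CO library was below each NC library, as for 23.8% of genes in this class. The group values were 27.8 and 12.7 CPM (-1.13, -1.90 to -0.41), past 2-fold lower as were 18.4% of genes in this class. The UMIs came from 12 of 51 NC sets and 6 of 28 CO sets, and the ratio was -1.80 without CO replicate 3, -0.83 without CO replicate 1 and -0.95 without CO replicate 2. The remaining CO UMIs included 11 in barcodes with markers of 2 classes, 9 in pericyte-like, 6 in border macrophage-like and 6 in ependymal-like cells. The genes most like Cygb over 26 profiles were Evpl (0.90), Tnmd (0.90), Lum (0.88), Slc47a1 (0.88) and Mfap5 (0.87). Lum, a matrix proteoglycan, was one of the markers that gated fibroblast-like cells.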

How the data were processed

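The unit is the raw UMI count per gene and barcode, as deposited; the authors used Cell Ranger and the Rnor_6.0 build, per the submitters' processing notes, in a version that the sources do not give. Counts were added up by group and class and divided by total UMIs (CPM). Barcodes of at least 500 UMIs were gated by 19 marker lists without members: at least 3 markers detected, a mean scaled log score of at least 0.5, and the second-best class under 0.7 of the best. Barcodes with 2 classes were left out, and no doublet caller was run. The members and lists were chosen with earlier results of these data known; the gate score, the 5% hemoglobin limit and the Jaccard limit were chosen after trying others on these data. A test over libraries was not run, because each group was counted as 1 sample. Named genes were the members, the 5 genes most alike in profile among those with at least 100 UMIs, and up to 4 genes per list with the most UMIs. The background took genes with at least 30 UMIs over both groups. Ratios have exact conditional binomial and shares exact Clopper-Pearson intervals at 95% (scipy 1.17.1). The ratio intervals were checked on simulated independent counts, which hold no near-identical barcodes, so this does not show their coverage in these data. Share intervals were not simulated. Alternatives included TMM factors (edgeR 4.0.16).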

Additional observations from a re-analysis of the deposited data

Results flagged for a closer look

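In 7 classes the hemoglobin log2 ratio of CO over NC had a direction shared by every library, and the directions were opposite between classes. The CO libraries were all lower in border macrophage-like (-0.61), monocyte or dendritic-like (-1.10), fibroblast-like (-0.92) and ependymal-like cells (-1.55), and all higher in T or NK-like (0.16), oligodendrocyte-like (0.52) and astrocyte-like cells (0.46). The difference between classes was not tested. Without hemoglobin-rich cells the oligodendrocyte-like value was -1.08, with the CO libraries all lower.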

How the results depend on the processing

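The 10 results that answer a comparison were recomputed under alternatives in 112 values, of which 94 counted as the same, 9 moved and 9 reversed. Same meant a change smaller than the spread between libraries, or for counts a change within a fixed fold. For the class median the spread was that of 3 ratios of same-numbered libraries. A change of sign smaller than the spread also counted as the same where the main value was under 1 in size. The cause was not tested unless stated. Over all barcodes the hemoglobin log2 ratio (0.49) reversed to -0.41 without hemoglobin-rich barcodes and ranged from 0.39 to 0.61 with 1 library left out. Under 500 UMIs (-0.01) it was 0.20 with a limit of 300 UMIs and -0.23 with 1000. The median over classes (-0.07) was the least stable: 0.029 with TMM factors, -0.49 with 2 markers, 0.24 with 4, -0.45 without hemoglobin-rich cells, 0.16 in cells of at least 2000 UMIs, -0.12 with both limits, 0.21 with 1 barcode per near-identical set, and -0.27 to 0.19 with 1 library left out. Choroid plexus-like cells (-0.18) were at 0.36 with 4 markers and at 0.22 in cells of at least 2000 UMIs, and T or NK-like cells (0.16) at -0.024 by mean share per cell. Without hemoglobin-rich cells pericyte-like (-0.11), neuroblast-like (-0.11) and oligodendrocyte-like cells (-1.08) reversed; with at least 2000 UMIs as well, pericyte-like were at -0.12 and neuroblast-like at -0.045. Ngb in oligodendrocyte-like cells (-0.20) was 0.19 by mean share per cell. The Alas2 difference under 500 UMIs (8.70 CPM) was 0 under 300 UMIs and 4.35 to 13.05 CPM with 1 library left out. The difference in barcodes with at least 50% hemoglobin (0.132 percentage points) was 0.192 at 25% and 0.0426 at 75%. Same-numbered libraries did not deviate together (correlations of -0.06, -0.05 and -0.08), so the replicate block, the mean of 3 same-numbered ratios, pairs by number only: it gave 0.48 over all barcodes, -0.01 under 500 UMIs, -0.14 for the class median and -1.31 for Cygb. Alternatives beyond the planned ones (1 barcode per set, 2000 UMIs, hemoglobin-rich barcodes left out over all barcodes and under 500 UMIs) were chosen after seeing the data. Depth limits Alas2 under 500 UMIs, Cygb, and Ngb outside oligodendrocyte-like cells, where a group held few UMIs from few near-identical sets.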
